A study of Mus musculus with 20 samples.

Results

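The EGF family ligands are the secreted or shed growth factors that bind the ERBB receptors. Here the family comprised 10 of the 45777 genes in the deposited table, which were chosen by symbol and on their measured TPM across the 4 groups, so that their levels and differences are given as a description and no p-value is given for them. The neuregulins Nrg1, Nrg2 and Nrg4 and the EGF-type ligands Areg, Ereg, Hbegf, Btc, Tgfa, Egf and Epgn were the members. Of these, 7 were above 0 TPM in all 20 mice, and Areg, Ereg and Epgn were listed at 0 in some mice.

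Uteri of wild-type B6D2F1 mice aged 8–12 weeks were collected at 18:00 on day 3.5 of pregnancy, just before implantation, with 5 mice and 5 libraries in each group. Control mice were untreated. Mice of the IF (implantation failure) group had received RU486 (mifepristone), which blocks the progesterone and glucocorticoid receptors, on the morning of day 3.5. The PBMC group had received RU486 and, on day 1.5, peripheral blood mononuclear cells from non-pregnant mice into the uterus, and the PBMC-hCG group the same with cells cultured with hCG, the gonadotropin of early human pregnancy. RU486 was thus shared by the IF, PBMC and PBMC-hCG groups, cells given into the uterus by the latter pair, and no group received cells without RU486. The cells were injected in culture medium under anesthesia, and IF mice had no such injection. Among the groups measured here none received medium alone, so the cells and the injection cannot be told apart. Each library was made from uterine tissue of 1 mouse with all its cell types, in which fewer cells of a type and less RNA per cell cannot be told apart.

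EGF family ligands are made as membrane proteins and released by proteases such as ADAM17. Egf, Tgfa and Areg encode ligands of EGFR, Hbegf, Btc and Ereg encode ligands of EGFR and ERBB4, Nrg1 and Nrg2 encode ligands of ERBB3 and ERBB4, and Nrg4 encodes a ligand of ERBB4. ERBB2 binds no ligand and signals as a partner of the others. In the mouse uterus, Areg is known as a gene of the luminal epithelium that follows progesterone before implantation, and Hbegf as a gene of the luminal epithelium at the site of the blastocyst.

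Epgn, Ereg, Areg and Btc lie side by side on chromosome 5 of GRCm38.p6, between bases 91027517 and 91402994. They were the only protein-coding genes among the 7 genes annotated in this stretch, with 39404 bases between Epgn and Ereg, 45949 bases between Ereg and Areg and 208828 bases between Areg and Btc. Of these neighbours, Areg varied most between mice, Btc differed between groups and Epgn was close to 0. The sequences just upstream of the start of 3 of them are shown to set these neighbours beside each other (RefSeq, GRCm38.p6), with 3 promoter motifs in capitals.
Areg, chr5:91139349-91139598, plus strand: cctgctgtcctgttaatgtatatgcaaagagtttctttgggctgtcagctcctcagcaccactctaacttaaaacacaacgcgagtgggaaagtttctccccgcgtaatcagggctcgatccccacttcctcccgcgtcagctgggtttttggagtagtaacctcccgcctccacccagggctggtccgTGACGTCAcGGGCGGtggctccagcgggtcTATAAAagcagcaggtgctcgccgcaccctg
Epgn, chr5:91027267-91027516, plus strand: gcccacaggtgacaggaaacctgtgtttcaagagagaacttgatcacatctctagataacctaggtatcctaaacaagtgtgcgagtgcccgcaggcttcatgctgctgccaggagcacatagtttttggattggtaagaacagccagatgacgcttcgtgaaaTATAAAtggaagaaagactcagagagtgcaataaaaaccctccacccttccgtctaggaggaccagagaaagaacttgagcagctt
Btc, chr5:91402995-91403244, minus strand: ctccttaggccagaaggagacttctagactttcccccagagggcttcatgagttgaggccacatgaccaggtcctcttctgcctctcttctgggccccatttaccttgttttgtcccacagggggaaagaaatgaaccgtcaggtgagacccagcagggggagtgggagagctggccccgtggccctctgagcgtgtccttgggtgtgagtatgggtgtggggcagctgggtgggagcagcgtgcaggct

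The first motif is the CRE, TGACGTCA, to which CREB binds, and in the Areg sequence it began 61 bases before the start. It was present in 1.55% of the 32851 promoters of the same length, both strands being searched for every motif. The SP1 letters GGGCGG began 52 bases before the start of Areg and were present in 32.7% of promoters. The TATA box was searched as the letters TATAAA, which began 31 bases before the start of Areg and were present in 12.4% of promoters. The Epgn sequence held the last of these motifs 86 bases before the start, and the Btc sequence held none of the 3 motifs, which says only that these letters are not in it.

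Values are in TPM, a share of all transcripts of a library that is corrected for transcript length, so that levels can also be compared between ligands. A difference between groups is given as a log2 difference of TPM + 0.1 from limma's fit across all 18706 genes above 0 TPM in all mice. A gene was called different if its p-value, adjusted over those genes by the Benjamini-Hochberg method, was under 0.05. Control replicate 2 stood apart from the other libraries. Its median correlation with the other libraries was 0.964 against 0.973 to 0.985 elsewhere, its 3 adipose markers summed to 87.9 TPM (at most 12.3 TPM elsewhere), and its 6 stroma markers to 4863 TPM (at least 7966 TPM elsewhere). The markers of uterine epithelium, stroma and myometrium (8, 6 and 6 genes) were above 0 TPM in all mice.

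Of the 7 ligands above 0 in all mice, 5 were called between the IF and control groups, with Nrg1, Nrg2, Hbegf and Btc higher and Nrg4 lower in IF mice. In all 5, the values of the 5 IF mice did not overlap those of the 5 control mice. Over all genes, 21.9% were called and 12.8% did not overlap. The median log2 difference was 0.94 over the 7 ligands and 0.02 over all genes.

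**Figure D1:**
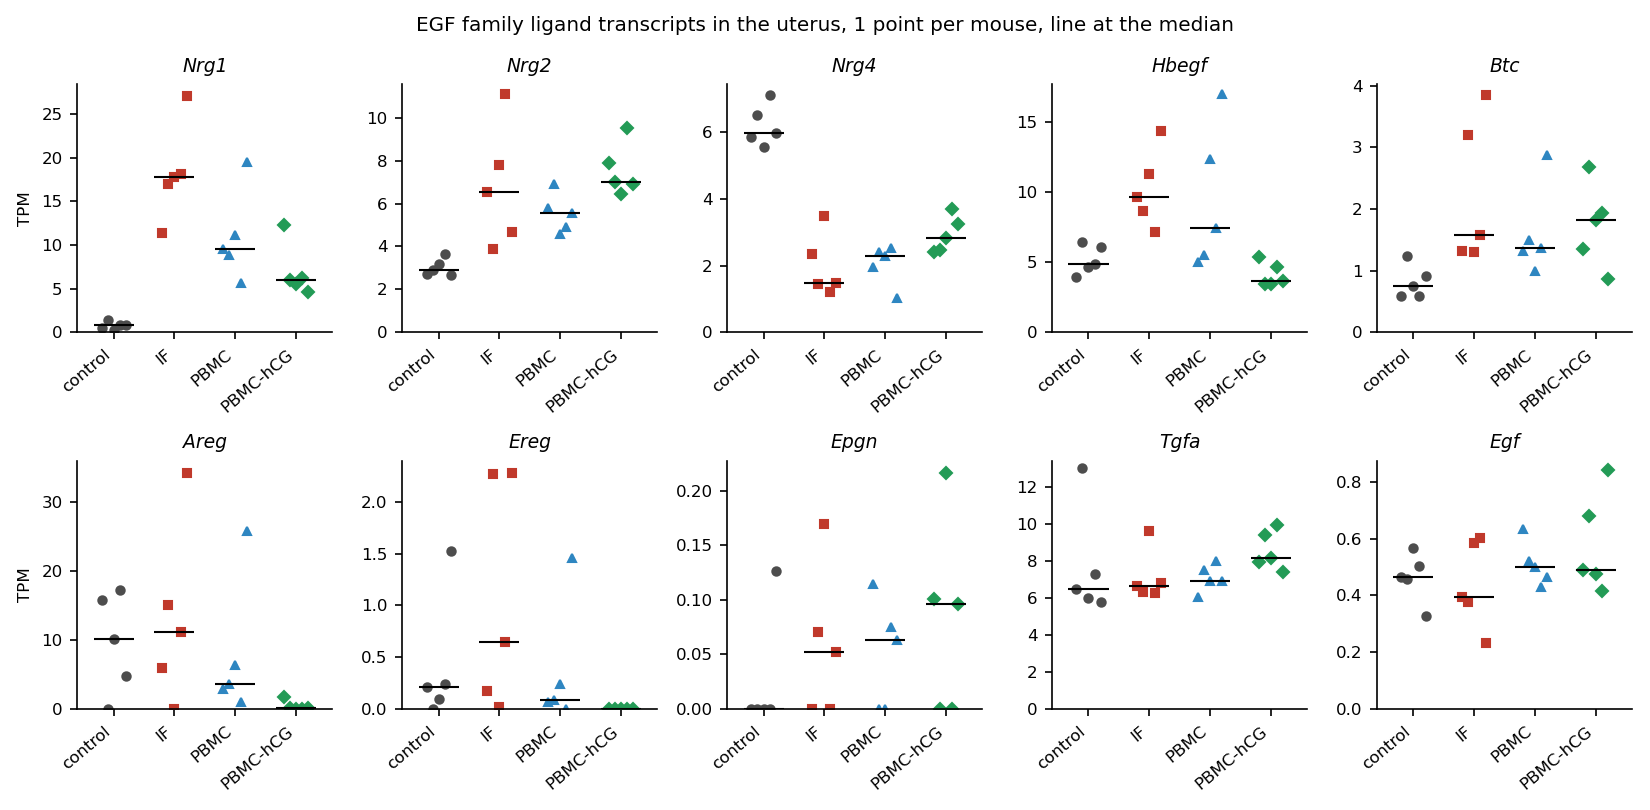
TPM of each of the 10 ligands (vertical axis, linear, own scale per panel) in the 4 groups; each point is 1 mouse and each line the median of 5 mice. The 5 control mice lay between 0.288 and 1.37 TPM for Nrg1 and the 5 IF mice between 11.4 and 27.1 TPM, whereas all PBMC-hCG mice were listed at 0 for Ereg.

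Nrg1 (chromosome 8, bases 31807452 to 32891609), the gene of neuregulin 1, had the largest log2 difference of the 7 tested ligands between IF and control. Control mice had 0.467, 1.37, 0.288, 0.851 and 0.819 TPM. IF mice had 11.4, 17.0, 17.8, 18.1 and 27.1 TPM, so that the lowest IF mouse was well above the highest control mouse. The PBMC mice had 9.55, 8.84, 11.2, 5.67 and 19.5 TPM and the PBMC-hCG mice 12.3, 6.02, 5.54, 6.20 and 4.63 TPM. All mice given RU486 thus lay above all controls, while neighbouring groups among the 3 RU486 groups overlapped. The log2 difference between IF and control was 4.51 (standard error 0.35, 95% interval 3.77 to 5.26). The mean in IF mice, 18.3 ± 5.62 TPM (SD, n = 5), was 24.1 times that of control mice, 0.758 ± 0.415 TPM (SD, n = 5). This ratio rests on low control values of unknown depth. Compared with IF mice, the log2 difference was -0.80 (95% interval -1.54 to -0.06) in PBMC mice, which was not called, and -1.42 (95% interval -2.16 to -0.68) in PBMC-hCG mice, which was called. Relative to control, Nrg1 was still higher by 3.09 on the log2 scale in PBMC-hCG mice (95% interval 2.35 to 3.83).

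Nrg2 (chromosome 18), which encodes neuregulin 2, was at 2.74, 2.92, 3.19, 3.66 and 2.67 TPM in control mice. IF mice had 6.52, 3.89, 7.80, 11.1 and 4.65 TPM, PBMC mice 5.80, 6.92, 4.58, 4.89 and 5.54 TPM, and PBMC-hCG mice 7.90, 7.02, 6.43, 9.53 and 6.90 TPM. Every RU486 mouse lay above every control mouse, and the 3 RU486 groups overlapped. The log2 difference from control was 1.05 (95% interval 0.61 to 1.49) in IF mice and 1.28 (95% interval 0.84 to 1.73) in PBMC-hCG mice. Between PBMC-hCG and IF mice it was 0.23 (95% interval -0.21 to 0.68), where Nrg1 had -1.42. The difference between these ligands was not tested.

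Nrg4 (chromosome 9, 55220222 to 55283654) was the neuregulin with the highest level in control mice, at 5.87, 6.52, 5.57, 7.13 and 5.99 TPM. It was at 2.34, 1.44, 3.47, 1.21 and 1.47 TPM in IF mice, 1.94, 2.40, 2.28, 2.54 and 1.02 TPM in PBMC mice and 2.41, 2.48, 2.82, 3.71 and 3.25 TPM in PBMC-hCG mice. All 15 mice given RU486 were below all 5 controls. The log2 difference between IF and control was -1.70 (95% interval -2.23 to -1.17). In PBMC-hCG mice Nrg4 was higher than in IF mice by 0.62 (95% interval 0.09 to 1.15), which was not called, and the ranges of these groups overlapped. Without IF replicate 3, the IF mouse with the highest Nrg4, the difference was 0.84 and was called. Nrg3, the fourth neuregulin gene and no member here, was listed at 0 in all 20 mice.

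Summed over the neuregulins, control mice had 10.01 ± 1.16 TPM (SD, n = 5), of which Nrg4 made the largest part. IF mice had 27.1 ± 5.51 TPM, PBMC mice 18.5 ± 4.69 TPM and PBMC-hCG mice 17.4 ± 3.48 TPM (SD, n = 5 each). The neuregulins made up 29.5 ± 3.73% of the summed TPM of the 10 ligands in control mice and 45.5 ± 8.96% in IF mice (SD, n = 5 each). For Nrg1 alone these shares were 2.26 ± 1.34% and 29.8 ± 3.18%. Nrg1 was the ligand with the highest TPM in 4 of 5 IF mice and in no control mouse, where Areg led in 3 mice, Hbegf in 1 and Tgfa in 1. In PBMC-hCG mice Tgfa led in 4 mice and Nrg1 in 1.

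**Figure D2:**
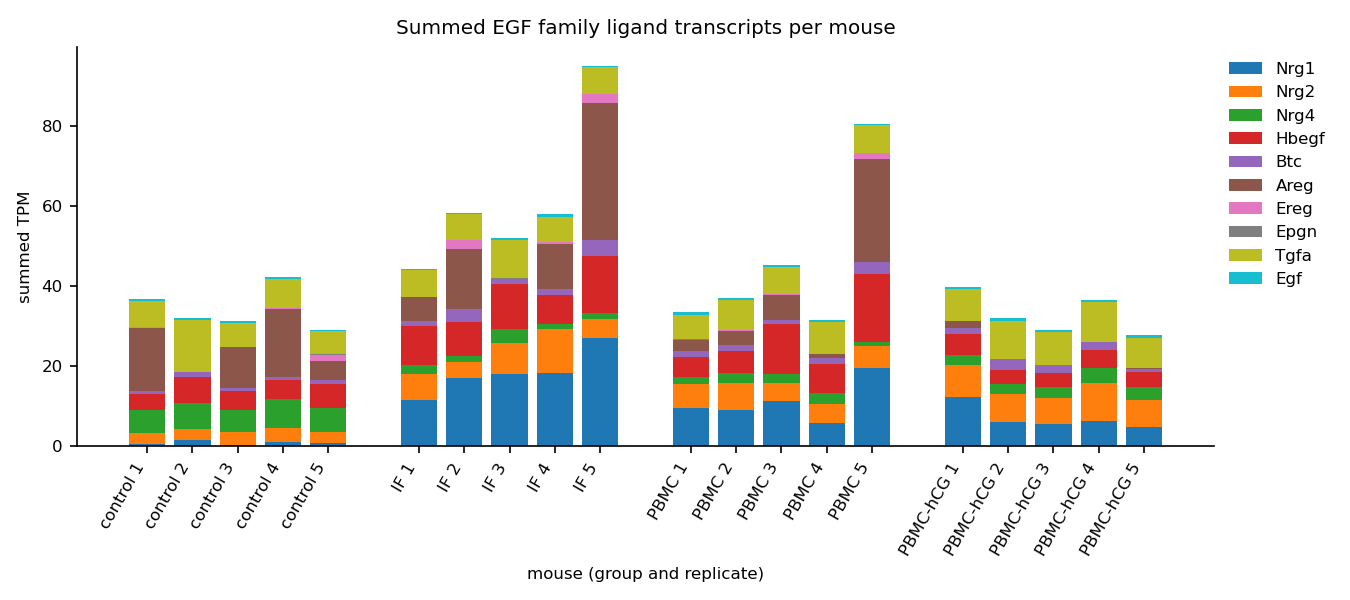
Summed TPM of the 10 ligands (vertical axis) in each of the 20 mice (horizontal axis), each colour being 1 ligand. The totals were 29.0 to 42.3 TPM in the control, 44.3 to 94.99 TPM in the IF, 31.4 to 80.6 TPM in the PBMC and 27.8 to 39.6 TPM in the PBMC-hCG group. The Nrg1 part was small in the controls and the Areg part was nearly absent in the PBMC-hCG group.

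Hbegf (chromosome 18), which encodes heparin-binding EGF-like growth factor, was at 3.97, 6.43, 4.66, 4.87 and 6.07 TPM in control mice. IF mice had 9.63, 8.66, 11.3, 7.15 and 14.3 TPM, all above the controls. PBMC mice spread from 4.98 to 17.0 TPM, at 4.98, 5.54, 12.3, 7.45 and 17.0 TPM, and overlapped all other groups. PBMC-hCG mice had 5.37, 3.45, 3.43, 4.62 and 3.62 TPM, all below every IF mouse and within or below the range of the controls. The log2 difference was 0.94 (95% interval 0.36 to 1.52) between IF and control, -1.28 (95% interval -1.86 to -0.70) between PBMC-hCG and IF, and -0.34 (95% interval -0.92 to 0.24) between PBMC-hCG and control. Between PBMC-hCG and PBMC mice it was -1.05 (95% interval -1.63 to -0.47) and was not called. The call between IF and control was lost without IF replicate 5 (log2 difference 0.81) or control replicate 1 (0.85), and with the study's criteria of a fold of 2 and an unadjusted p under 0.05.

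Btc (chromosome 5, 91357261 to 91402994), which encodes betacellulin, was lower in level, at 0.586, 1.24, 0.756, 0.587 and 0.921 TPM in control mice. It was at 1.33, 3.20, 1.31, 1.58 and 3.86 TPM in IF mice, 1.32, 1.50, 0.989, 1.37 and 2.88 TPM in PBMC mice and 1.36, 2.68, 1.81, 1.93 and 0.868 TPM in PBMC-hCG mice. IF mice lay above the controls, narrowly, and the other groups overlapped them. The log2 difference between IF and control was 1.26 (95% interval 0.55 to 1.98). Between PBMC-hCG and control it was 0.96 (95% interval 0.25 to 1.67), a call that was lost on leaving out any of PBMC-hCG replicates 2, 3 and 4 or control replicates 1, 3, 4 and 5 (0.79 to 1.01). It was also lost with a pseudocount of 1, with no filter on low values, with quantile or median-of-ratios scaling and with the study's criteria.

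**Figure D3:**
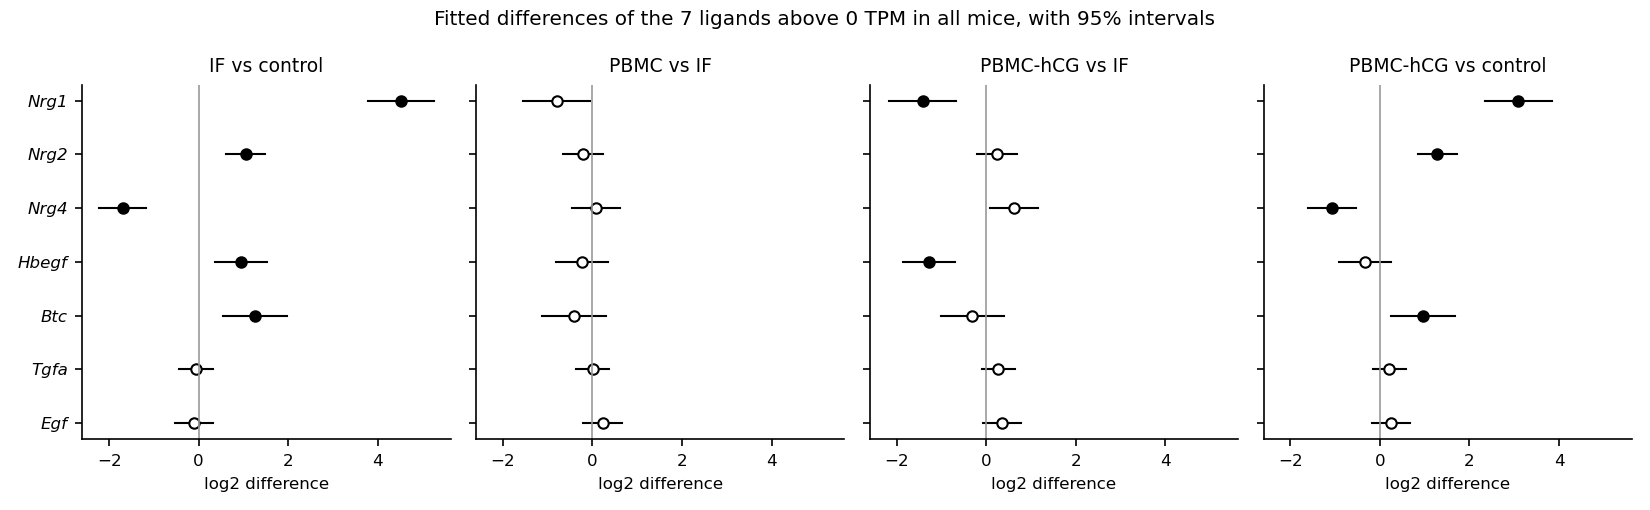
Log2 differences (horizontal axis) with 95% intervals of the 7 ligands above 0 TPM in all mice, in 4 comparisons; filled points were called at an adjusted p under 0.05 over all genes. Between IF and control the points ranged from -1.70 for Nrg4 to 4.51 for Nrg1. Tgfa and Egf lay between -0.11 and 0.36 in every panel, with intervals that included 0.

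Areg (chromosome 5, 91139599 to 91148432), which encodes amphiregulin, varied most within groups. Control mice had 15.8, 0, 10.2, 17.2 and 4.76 TPM, and IF mice 5.90, 15.0, 0, 11.2 and 34.2 TPM. These groups overlapped widely, each with 1 mouse listed at 0. PBMC mice had 2.87, 3.57, 6.33, 1.01 and 25.8 TPM, and PBMC-hCG mice 1.75, 0.163, 0, 0 and 0.160 TPM, so that 4 of 5 PBMC-hCG mice were under every PBMC mouse. Since 4 libraries were listed at 0, Areg was outside the genes tested. The TPM table does not hold the number of reads behind a value, and a 0 is given only as listed. Among the 10197 genes with a median of at least 10 TPM, 0 to 7 per library were listed at 0.

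Ereg (chromosome 5, 91074617 to 91093649), which encodes epiregulin, was at or under 2.28 TPM in all mice. Control mice had 0.207, 0, 0.0986, 0.242 and 1.53 TPM, IF mice 0.176, 2.27, 0.0199, 0.644 and 2.28 TPM, and PBMC mice 0.0682, 0.0871, 0.242, 0 and 1.46 TPM. All 5 PBMC-hCG mice were listed at 0, as were 1 control and 1 PBMC mouse. The mice with the highest Ereg in the IF and PBMC groups, both replicate 5, also had the highest Areg of their groups. In the control group it was otherwise. There replicate 5 had the highest Ereg and, at 4.76 TPM, the lowest Areg of the controls above 0. Epgn, which encodes epigen, reached at most 0.216 TPM and was listed at 0 in 10 mice, 4 of them controls.

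Tgfa (chromosome 6, 86195038 to 86275744), which encodes transforming growth factor alpha, was close in all groups. Control mice had 6.46, 13.0, 5.97, 7.27 and 5.76 TPM, IF mice 6.61, 6.30, 9.59, 6.27 and 6.80 TPM, PBMC mice 6.06, 7.48, 6.91, 7.96 and 6.89 TPM, and PBMC-hCG mice 7.95, 9.36, 8.15, 9.94 and 7.39 TPM. All groups overlapped, and the highest value was that of control replicate 2. The log2 difference was -0.06 (95% interval -0.44 to 0.32) between IF and control and 0.27 (95% interval -0.10 to 0.65) between PBMC-hCG and IF. Between PBMC-hCG and control it was 0.21, and 0.42 with a call when control replicate 2 was left out. Egf, which encodes epidermal growth factor, lay between 0.232 and 0.844 TPM over all mice. Its log2 difference was -0.11 (95% interval -0.54 to 0.32) between IF and control and 0.36 (95% interval -0.07 to 0.79) between PBMC-hCG and IF.

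In the other comparisons fewer ligands were called. Between PBMC and IF, 0 of 7 were called by limma, where 0% of all genes were called and 1271 genes had an unadjusted p under 0.05. Nrg1 was the only ligand whose 95% interval left out 0, and 0 ligands did not overlap (1.01% of all genes). Between PBMC-hCG and IF, 2 of 7 were called, both lower (13.6% of all genes), and of these 7 Hbegf did not overlap (7.24% of all genes). Ereg, outside the tested genes, was listed at 0 in all PBMC-hCG mice and was above 0 in all IF mice, the lowest at 0.0199 TPM. Between PBMC-hCG and PBMC, 0 of 7 were called by limma (0.0107% of all genes, with 3024 at an unadjusted p under 0.05), 0 did not overlap (3.46%), and the intervals of Nrg4 and Hbegf left out 0. Compared with control, 3 ligands were called and did not overlap in PBMC mice (19.5% and 12.7% of all genes). In PBMC-hCG mice 4 were called and 3 did not overlap (31.8% and 18.3%). The comparisons with IF share the IF mice and those with control share the control mice. The calls between PBMC-hCG and IF changed when single mice were left out, over all genes as well as for the ligands. Both ligand calls were lost on leaving out IF replicate 2, 4 or 5 or PBMC-hCG replicate 2, 3, 4 or 5. Log2 differences then lay between -1.43 and -1.27 for Nrg1 and between -1.40 and -1.15 for Hbegf. The number of all genes called then fell from 2544 to between 0 and 34. Without IF replicate 3 it was 5061, with 3 ligands called, and without PBMC-hCG replicate 1 it was 4166.

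Transcripts of 3 of the 4 ERBB receptors were detected in all mice. Egfr was at 25.8 ± 5.33 TPM in control, 32.4 ± 8.70 TPM in IF, 29.8 ± 4.77 TPM in PBMC and 23.0 ± 3.52 TPM in PBMC-hCG mice (SD, n = 5 each). Its differences from control and from IF did not pass the test, with a log2 difference of 0.32 between IF and control (95% interval -0.06 to 0.70, limma adjusted p = 0.237). Erbb2 was at 24.0 ± 5.0, 26.4 ± 5.09, 26.3 ± 2.98 and 32.4 ± 4.75 TPM in the same order. It was higher in PBMC-hCG than in control mice by 0.44 (standard error 0.14, limma adjusted p = 0.0247).

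Erbb3, the receptor of neuregulins 1 and 2 detected here, was at 17.3, 22.6, 15.0, 14.5 and 17.4 TPM in the controls. IF mice had 16.4, 20.6, 25.5, 15.2 and 12.1 TPM. PBMC-hCG mice had 20.6, 31.9, 35.03, 31.1 and 24.5 TPM, which overlapped both. The log2 difference between IF and control was 0.02 (95% interval -0.41 to 0.45, limma adjusted p = 0.964), while between PBMC-hCG and IF it was 0.69 (standard error 0.21, limma adjusted p = 0.0392). Erbb4 was listed at 0 in 18 of 20 mice and was at 0.329 TPM in control replicate 2 and 0.0261 TPM in IF replicate 3. These mice also had the highest Erbb3 of their groups and were those listed at 0 for Areg. The epithelium markers, which summed to between 765 and 1311 TPM in control, 1036 and 1349 TPM in IF and 1147 and 1525 TPM in PBMC-hCG mice, had 5 of 8 genes higher and 1 lower in IF than in control mice and 1 of 8 higher in PBMC-hCG than in IF mice. The endothelium markers summed to between 316 and 425 TPM in control, 473 and 510 TPM in IF and 523 and 590 TPM in PBMC-hCG mice, with 5 of 5 genes higher in IF than in control mice and 1 of 5 higher in PBMC-hCG than in IF mice. The stroma markers summed to a median of 8232, 9021 and 9393 TPM in these groups, with 2 of 6 higher in IF than in control mice and 1 of 6 higher in PBMC-hCG than in IF mice. The myometrium markers summed to a median of 8098, 6407 and 5439 TPM, with 1 of 6 lower in IF than in control mice. Over all genes, 21.9% were called between IF and control, 13.6% between PBMC-hCG and IF and 31.8% between PBMC-hCG and control. Between PBMC-hCG and control mice, 5 of 6 myometrium markers were lower. In that comparison 5 of 8 epithelium markers were higher and 1 lower. Of the endothelium markers 5 of 5 were higher, and of the stroma markers 3 of 6. The part of these markers in the receptor and ligand differences was not tested.

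**Figure D4:**
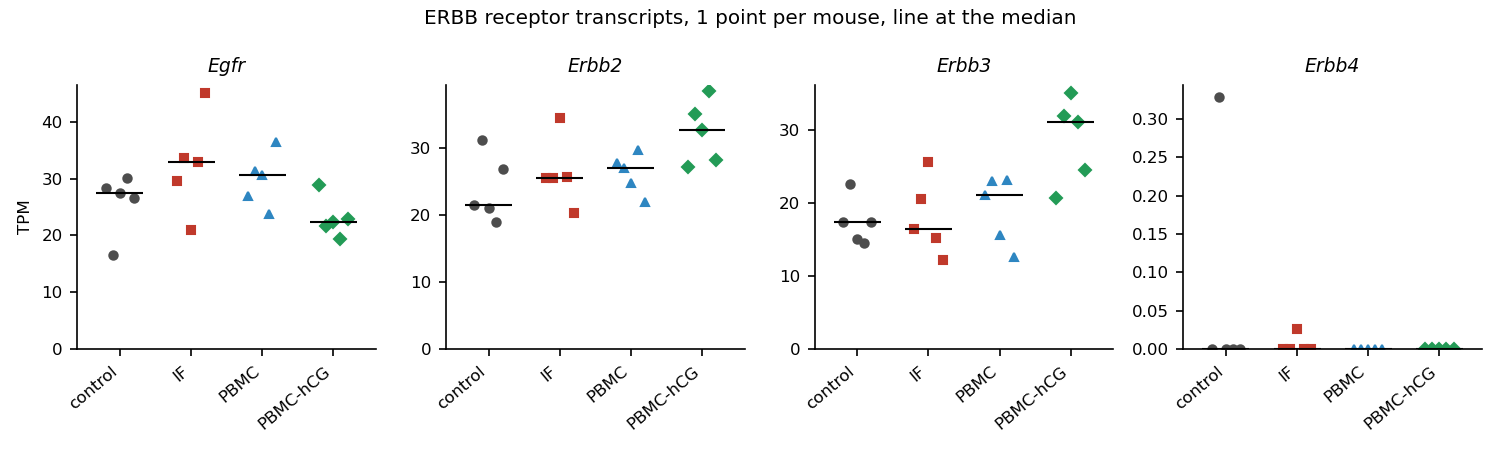
TPM of the ERBB receptors (vertical axis, linear, own scale per panel) in the 4 groups; each point is 1 mouse and each line the median of 5 mice. Erbb3 reached 35.03 TPM in the PBMC-hCG group and at most 25.5 TPM in IF mice, and Erbb4 was above 0 in 2 mice.

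Beyond ligands, 68 genes of ERBB signaling were listed, of which 1 was not found under its symbol and 65 could be tested. These lists too were chosen with earlier results of these data known, so their counts and p-values are descriptions. Between IF and control mice 28 of the 65 passed the test, 25 higher and 3 lower, where 21.9% of all genes passed. The median log2 difference over the 65 was 0.25, against 0.02 over all genes. No ERBB receptor was among the 28. Of 15 tested genes for shedding and transport of ligands, 6 were higher and none lower in IF mice. Rhbdf2, which carries ADAM17 to the cell surface, rose by 0.69 (standard error 0.12, limma adjusted p = 0.000319). Frmd8, a partner of that carrier, rose by 0.47 (limma adjusted p = 9.39e-06) and the protease gene Furin by 0.46 (limma adjusted p = 8.01e-05).

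Among 19 feedback regulators of the receptors, 10 were higher and 1 lower in IF mice, where 21.9% of all genes passed. The lower gene was Errfi1, an inhibitor of EGFR and ERBB2, with 165 to 267 TPM in control and 75.2 to 128 TPM in IF mice and a log2 difference of -1.16 (standard error 0.24, limma adjusted p = 0.00199). Dusp5, an ERK phosphatase, was higher by 0.74 (limma adjusted p = 0.0341) and Spry2, an inhibitor of RAS signaling, by 0.55 (limma adjusted p = 0.00294). Of 17 adaptors and kinases, 5 were higher and none lower, led by Map2k1 (0.47), Pik3ca (0.38) and Shc1 (0.36).

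The transcripts known to be induced by ERBB signaling did not move one way, with 4 of 11 higher and 2 lower in IF mice. Over all genes, 21.9% passed. The immediate early genes Egr3 and Fos were each higher by 1.71 (standard error 0.43 and 0.55, limma adjusted p = 0.00779 and 0.0325). Fos ranged from 10.7 to 74.3 TPM in control and from 68.1 to 161 TPM in IF mice. Myc, a driver of growth, fell by 1.04 (limma adjusted p = 5.14e-07), from a median of 113 to 54.7 TPM.

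Between PBMC-hCG and IF mice 14 of the 65 genes passed the test, 4 higher and 10 lower, and the median log2 difference over the 65 was -0.13, where 13.6% of all genes passed with a median of 0.05. Lower genes included the feedback regulators Spry4 (-1.02, limma adjusted p = 0.0287) and Dusp6 (-0.71, limma adjusted p = 0.0287), the induced transcripts Etv4 (-0.87, limma adjusted p = 0.0451) and Ier3 (-0.76, limma adjusted p = 0.0349), and the kinase gene Map2k1 (-0.42, limma adjusted p = 0.0376). Rhbdf1 and Furin were lower by smaller amounts, at -0.35 and -0.25 on the log2 scale. The adaptor gene Gab1 (0.50, limma adjusted p = 0.0287) and Lrig3 (0.44, limma adjusted p = 0.0437) were higher, as was Erbb3. As for the ligands, 0 of the 65 passed on leaving out IF replicate 2, 4 or 5 or PBMC-hCG replicate 2, 3, 4 or 5, and 24 passed without IF replicate 3 or PBMC-hCG replicate 1. Between PBMC and IF 0 passed in limma's test (4 at an unadjusted p under 0.05), and between PBMC-hCG and PBMC 0 passed (20 at an unadjusted p under 0.05).

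The 10 progesterone receptor targets listed summed to between 809 and 1020 TPM in control mice and between 746 and 909 TPM in IF mice. Of these 10, 1 was called higher and 2 lower in IF mice, where 21.9% of all genes were called. The higher gene was Cyp26a1, at 89.0 to 173 TPM in the controls and 213 to 289 TPM in the IF group. The lower genes were Il13ra2, at 30.8 to 57.0 and 1.54 to 2.79 TPM, and Hoxa10, at 250.1 to 281 and 96.4 to 171 TPM. These 3 genes were named after their values were seen, and none of them overlapped between the groups. Over all genes, 12.8% did not overlap. In PBMC-hCG mice the 10 targets summed to between 891 and 968 TPM. Of them, 2 were called higher than in IF mice, where 13.6% of all genes were called. Of the 5 embryo markers, Pou5f1, Nanog and Cdx2 were at most at 0.206 TPM and Elf5 at most at 0.715 TPM. Eomes made up most of their sum, at 3.75 to 4.76 TPM in control mice and 4.87 to 7.86 TPM in the IF group (limma adjusted p = 0.0177). Which cells Eomes came from was not tested. Of the leukocyte markers, 2 of 6 tested were higher in IF than in control mice. In limma's test 0 differed between PBMC-hCG and IF mice. The shares of all genes called in these comparisons were 21.9% and 13.6%.

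The genes most like a ligand across the 20 mice were sought for Nrg1 and for the ligands with the highest mean TPM, among 15765 genes with a mean of at least 1 TPM. For Nrg1 these were Foxo1, Dennd2a, Dio2, Inhbb and Anxa7, with Pearson correlations of log2 values between 0.966 and 0.975 over 20 mice. After subtraction of group means they were between 0.676 and 0.816. Inhbb, which encodes an inhibin subunit, was at 7.32 to 31.7 TPM in control and 376 to 846 TPM in IF mice. PBMC-hCG replicate 1, the mouse with the highest Nrg1 of its group, had 398 TPM of Inhbb where the other PBMC-hCG mice had 58.4 to 167 TPM.

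**Figure D5:**
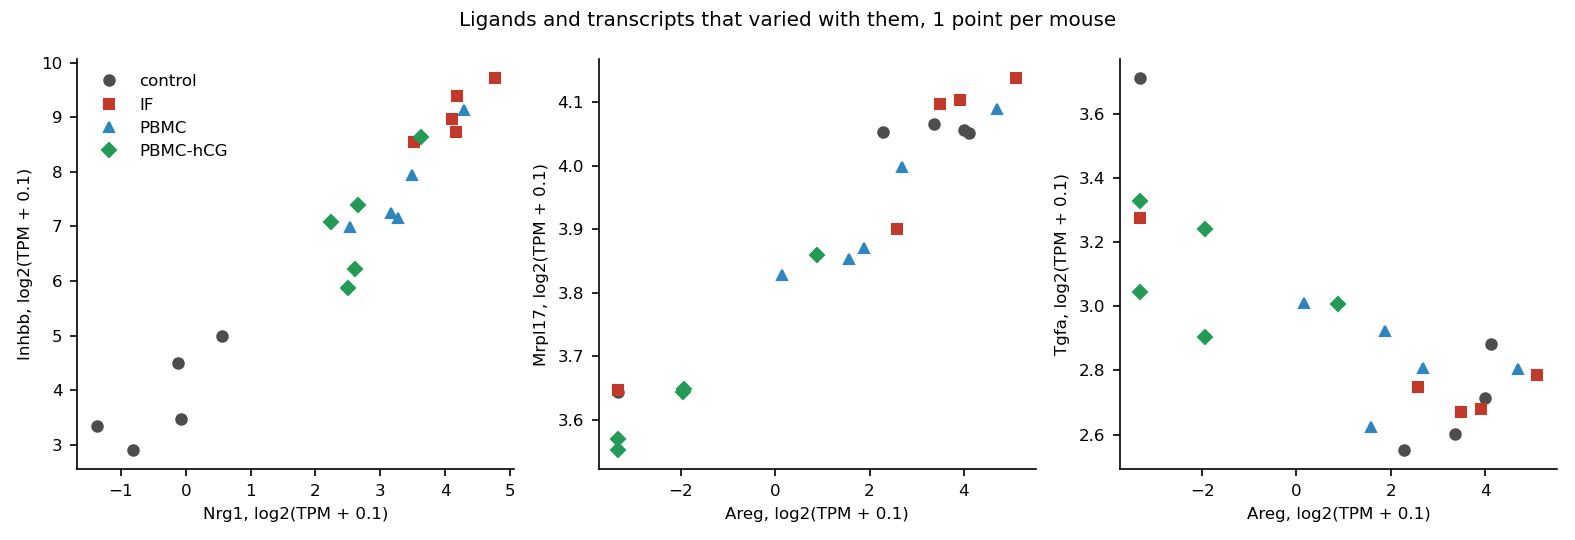
Log2(TPM + 0.1) of Inhbb against Nrg1, of Mrpl17 against Areg and of Tgfa against Areg; each point is 1 of 20 mice and marker shape gives the group. Inhbb and Nrg1 separated control from RU486 mice, while mice of different groups were mixed along Areg, with control replicate 2 and IF replicate 3 beside the PBMC-hCG mice.

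For Areg the nearest genes were Mrpl17, Sec31a, Sem1, Tmem167 and Morf4l2, with correlations between 0.955 and 0.973, and between 0.937 and 0.967 without group means. Over the 16 mice above 0 for Areg they were between 0.927 and 0.958. These are widely expressed genes with a smaller range than Areg, Morf4l2 lying between 172 and 408 TPM over all mice. Mrpl17, which encodes a mitochondrial ribosomal protein, was at 16.5, 12.4, 16.6, 16.5 and 16.5 TPM in the controls. IF mice had 14.8, 17.1, 12.4, 17.0 and 17.5 TPM. In both groups the lowest mouse was the mouse listed at 0 for Areg. PBMC mice had 14.1 to 16.9 TPM and PBMC-hCG mice 11.6 to 14.4 TPM, and again the highest mouse of the PBMC-hCG group, replicate 1, was also the highest for Areg.

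Areg was also the ligand with which most other genes varied inside groups. After subtraction of group means, 12.7% of the 15765 genes had a correlation of at least 0.8 in size with Areg, 1213 positive and 791 negative. For Tgfa this was 7.34%, 270 positive and 887 negative, and for Nrg1, Nrg2, Nrg4, Hbegf and Btc it was between 0.00634% and 0.844%. Among pairs of ligands, Areg and Tgfa had -0.763, Areg and Nrg4 -0.664, and Nrg1 and Hbegf 0.634. Control replicate 2 and IF replicate 3, listed at 0 for Areg, had the highest Tgfa of their groups, at 13.0 and 9.59 TPM. Control replicate 2 was also the library that stood apart. These counts and pair values were not repeated without these mice. Among the genes nearest to Tgfa were Slc5a11, Rasgef1b and Galnt11, at 0.889 to 0.906 with group means and 0.884 to 0.8995 without them. All these correlations rest on 20 mice that share groups and libraries and are descriptions. The part of such a shared variation in the low Areg of PBMC-hCG mice was not tested.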

How the data were processed

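RNA of the uterus of 20 mice, 5 per group and 1 library per mouse, was measured by stranded mRNA sequencing. The authors used Trimmomatic for trimming, HISAT2 for alignment to mm10 and StringTie for assembly. What they deposited is a table of TPM per gene. Library totals lay between 999989 and 999999, so depth and counting error are unknown. Groups and replicate numbers were taken from the labels, and no column was left unmapped. Values were transformed to log2(TPM + 0.1), and limma 3.58.1 in R 4.3.3 was fitted to the 18706 genes never at 0 TPM (variance trend, 4 groups together, 6 comparisons, Benjamini-Hochberg adjustment within each). This replaced the count test of the authors, since the deposited values are TPM. Genes were called at an adjusted p under 0.05. Python 3.11.15 with pandas 2.3.3 and matplotlib 3.10.9 gave levels and plots, and R's data.table (version 1.17.8) read the values.

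The members and all gene lists were chosen with earlier results of these data known. Named were all members, the ERBB receptors and, from each other pathway list, up to 3 genes with the largest log2 difference among those called, once for IF against control and once for PBMC-hCG against IF. Of 10 members 7 were tested. For likeness, 5 genes each were named. Of the genes that these rules name, 3 are not reported here. Promoter sequences were RefSeq's, and 3 motifs were searched on both strands. The methods were tested on simulated data. The fit was repeated with another pseudocount, filter, scaling or threshold, with a replicate block, and each mouse left out in turn. The labels name no batch.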

Additional observations from a re-analysis of the deposited data

Results flagged for a closer look

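In 9 of 39 ligand and group combinations 1 of the 5 mice lay far from the rest, its gap to the nearest mouse being over 0.71 of the group's range (Dixon's test). Chance flags about 1 in 20 where values are not skewed or listed at 0, so the number is not set against chance here. In the PBMC group replicate 5 was the highest mouse for Areg at 25.8 TPM, for Ereg at 1.46 TPM and for Btc at 2.88 TPM. In the PBMC-hCG group replicate 1 was the highest for Nrg1 at 12.3 TPM and for Areg at 1.75 TPM. Tgfa was at 13.0 TPM in control replicate 2 and at 9.59 TPM in IF replicate 3, the mice of these groups listed at 0 for Areg. In control replicate 5 Ereg was at 1.53 TPM and Epgn at 0.126 TPM, where the other controls were listed at 0 for Epgn, so that any value above 0 would stand apart.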

How the results depend on the processing

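Log2 differences of the 7 ligands kept their direction where called under every alternative run, and 789 values moved by less than the spread between mice. The 3 exceptions were those of Nrg1 with a pseudocount of 1, at 3.44 between IF and control, 2.70 between PBMC and control and 2.14 between PBMC-hCG and control. Between PBMC and control, Btc was called without control replicate 2 (1.01) and Hbegf without PBMC replicate 1 (0.90) or 2 (0.86), and Nrg2 was not called with the study's criteria. Ligands called between PBMC-hCG and IF numbered 0 to 3 when each mouse was left out. With the study's criteria (a fold of 2 and an unadjusted p under 0.05) 1 ligand, Hbegf, was called between PBMC-hCG and PBMC, where limma's adjusted p gave 0. These criteria called 167 of all 18706 genes there. Of the 65 pathway genes, 28 were called between IF and control, 18 with only those groups in the fit and 6 with the study's criteria. Over all genes these numbers were 4104, 2473 and 754. Between PBMC-hCG and IF 14 pathway genes were called, 4 with no filter on low values and 1 with the study's criteria. When each mouse was left out, 0 to 24 were called. Over all genes these numbers were 2544, 812 (of 30695) and 432, and 0 to 5061 when each mouse was left out. For pathway genes, the study's criteria gave 1 between PBMC-hCG and PBMC, 7 between PBMC and control (31 in the fit used) and 7 between PBMC-hCG and control (27). Over all genes they gave 167, 625 and 887, where the fit used gave 2, 3653 and 5941. Deviations of same-numbered mice correlated between -0.247 and 0.457, over 0.1 in 8 of 30 pairs. The highest were those of replicate 5 between IF and PBMC (0.457), control and IF (0.396) and control and PBMC (0.272). Differently numbered mice were not compared, so whether the numbers pair the mice was not settled. With a replicate block 5 ligands and 28 pathway genes were called between IF and control, and 2 ligands and 16 pathway genes between PBMC-hCG and IF. Over all genes, 3215 were then called between PBMC-hCG and IF, against 2544 without the block. Depth is unknown, which limits what the low values of Ereg, Epgn, Egf and Erbb4, and of Nrg1 and Btc in control mice, can show.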
